A study of Mus musculus with 6 samples.

Results

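A set of 10 genes was followed that answer to oxidative stress and to the transcription factor Nrf2, namely Nqo1, Hmox1, Gclc, Gclm, Txnrd1, Srxn1, Gpx2, Osgin1, Aox1 and G6pdx. They were chosen by name, and a gene was read from the probe set that the platform annotation gives to its symbol; where a gene has several, the brightest on average stands for it. Of the 10 genes, 9 were measured here, each by 1 probe set, among 19505 genes in all; G6pdx is not analysed here. The samples were salivary glands of mouse embryos at a stage written as T13, kept for 72 hours with TGF-β1 (3 arrays, TGF-β1 1 to 3) or with no treatment (3 arrays, controls 1 to 3). The sources used here do not give the dose of TGF-β1, the type of salivary gland or the mouse strain. Whether replicates were separate litters or cultures is not stated, and a p-value here therefore reflects the spread among these arrays, possibly a technical one.

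Nrf2, encoded by Nfe2l2, is held at a low level by Keap1, which hands it to the Cul3 ubiquitin ligase for breakdown. When oxidants or electrophiles modify Keap1, Nrf2 accumulates, pairs with a small Maf protein and binds antioxidant response elements, short DNA sites that the repressor Bach1 otherwise occupies. The genes it switches on make glutathione, restore thioredoxin and peroxiredoxins, supply NADPH, break down heme and make foreign compounds easier to remove. In cultured cells TGF-β is known both to raise oxidant production, through the NADPH oxidase Nox4, and to act on antioxidant genes.

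The DNA next to the start of these genes is shown because Nrf2 acts through it. RefSeq windows of 300 bases (250 before the start and 50 after it, build GRCm38.p6) were found for 8 of the 10 genes; Hmox1 and Gclc have none in the table. Each was searched on both strands for the core of the antioxidant response element, TGACNNNGC, and for the AP-1 site, TGANTCA; the motifs overlap where TGACTCA is followed by GC. The core was in a window of 4 members, Gclm, Txnrd1 (1 of its 3 windows), Srxn1 and G6pdx, and in 12.4% of all 32851 windows. The AP-1 site was in a window of 3 members, Srxn1, Osgin1 and Aox1, and in 7.81% of all windows; Srxn1 has 2 of them, as 0.46% of all windows do. A match describes letters in the window and says nothing of binding. The first 2 lines give the whole windows of Srxn1 (chr2:152105274-152105573, plus strand) and Aox1 (chr1:58029719-58030018, plus strand), and the next 3 give the stretch around the match in Gclm (chr3:122245407-122245447, plus strand), in Txnrd1 (chr10:82859098-82859138, plus strand) and in Osgin1 (chr8:119437034-119437072, plus strand), with every match in capitals.
Srxn1: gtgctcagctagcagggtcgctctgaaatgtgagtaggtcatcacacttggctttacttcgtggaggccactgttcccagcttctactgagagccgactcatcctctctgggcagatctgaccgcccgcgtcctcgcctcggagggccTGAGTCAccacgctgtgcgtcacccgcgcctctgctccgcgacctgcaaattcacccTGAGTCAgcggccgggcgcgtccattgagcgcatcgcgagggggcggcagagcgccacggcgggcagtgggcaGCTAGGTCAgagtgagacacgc
Aox1: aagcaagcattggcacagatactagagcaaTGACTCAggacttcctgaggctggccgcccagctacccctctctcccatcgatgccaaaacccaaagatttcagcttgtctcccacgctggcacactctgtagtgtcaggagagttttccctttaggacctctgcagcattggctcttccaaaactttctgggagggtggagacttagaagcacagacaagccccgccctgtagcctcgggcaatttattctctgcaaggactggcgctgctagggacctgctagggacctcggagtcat
Gclm: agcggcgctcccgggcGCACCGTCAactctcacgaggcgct
Txnrd1: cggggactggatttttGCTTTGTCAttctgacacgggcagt
Osgin1: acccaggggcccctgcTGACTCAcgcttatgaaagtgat
In Srxn1 the AP-1 sites begin 102 and 45 bases before the start, while the core of the response element lies after the start. In Gclm and Txnrd1 the core is on the opposite strand, 134 and 92 bases before the start.

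Control 3 stood apart from the other arrays, and each named gene is therefore also given in a fit without it and TGF-β1 3. Its correlation with the others over all genes was 0.550 to 0.601, against 0.948 to 0.990 among the other 5, and Actb and Gapdh, genes that every cell uses, were at 8.91 and 6.21 there and at 12.70 to 13.34 and 11.87 to 11.98 in the other arrays (log2 values). The values of control 3 were also less spread, with an interquartile range of 2.05, against 3.17 to 3.26 in the other arrays. TGF-β1 3 also lay off the remaining 4 arrays, at 0.948 to 0.953. The glands carried their epithelial marker Epcam at 10.10 to 10.27 in the TGF-β1 arrays and at 9.63, 8.93 and 6.40 in controls 1, 2 and 3.

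No member passed in more than 1 of 3 fits of the difference between TGF-β1 and control glands. In the unweighted limma fit to all 6 arrays, 0 of the 9 measured members passed an adjusted p of 0.05, as did 0% of all genes; 1 member, Aox1, had an unadjusted p under 0.05, as did 389 of all genes. When each array was weighted by its estimated reliability, 4 of 9 members passed (44.4%, against 6.88% of all genes): Hmox1, Srxn1 and Aox1 were lower (3.44% of all genes were called lower) and Gpx2 was higher (3.45% called higher). In the fit without control 3 and TGF-β1 3, 0 members passed, against 2.59% of all genes (1.14% called higher and 1.45% called lower). The TGF-β1 and control arrays that remain, 2 of each, did not overlap for 7 of 9 members (77.8%), against 47.4% of all genes. With array weights and any 1 of the 6 arrays left out, 0 members passed as well. Apart from the fit without control 3, these fits are a weak check. Without control 1 or control 2, control 3 got the same weight as the other control left (0.150 or 0.145). Without TGF-β1 1, 2 or 3, control 2 got 0.054, 0.075 and 0.012, below the 0.161, 0.147 and 0.116 of control 3. The words rose and fell are kept below for genes that passed in both of these fits, the weighted one and the one on 4 arrays; for other genes the difference is given as a value. Over all genes 2.48% passed in both, 1.12% higher and 1.36% lower. These 2 fits are not independent, as both rest mainly on the same 4 arrays. The weighted fit gave control 3 a weight of 0.034 and TGF-β1 3 one of 0.398, against 1.65 to 4.52 for the others. Of the 505 genes that passed on 4 arrays, 484 also passed with array weights in the same direction.

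**Figure D1:**
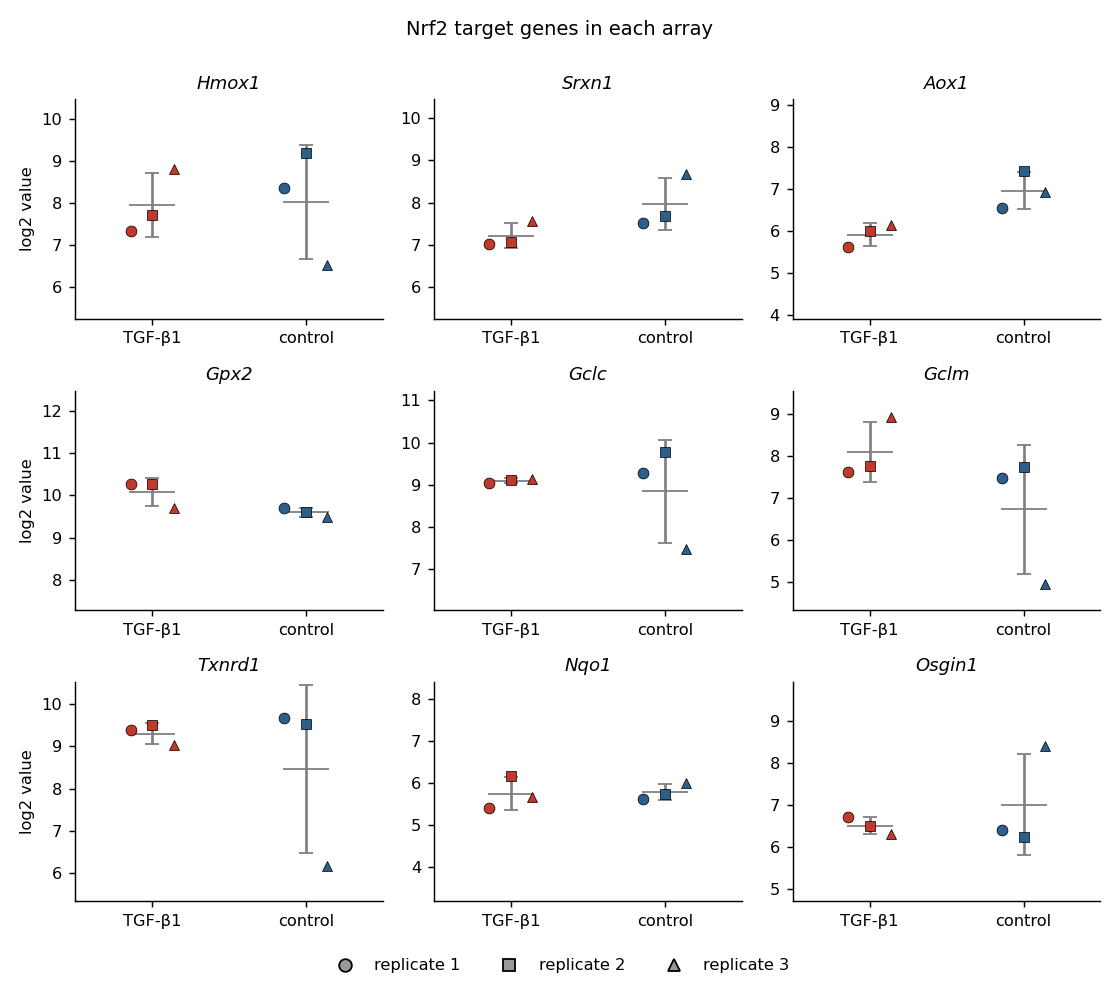
Log2 value (vertical axis, each panel spanning the same number of log2 units) of the 9 measured members in the TGF-β1 arrays (red, left) and the control arrays (blue, right). Points are arrays, marked by replicate number, and the grey bar and whiskers give the mean ± SD of the 3 arrays. Control 3 (blue triangle) is the lowest array for 5 members and the highest for 2. Of all 19505 genes it is the lowest for 6323 and the highest for 10130. Among the members only Gpx2 and Aox1 have groups that do not overlap (22.2%, against 11.6% of all genes).

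Hmox1 encodes the inducible heme oxygenase, which splits heme into biliverdin, carbon monoxide and iron. It was at 7.33, 7.72 and 8.80 in TGF-β1 1, 2 and 3, and at 8.35, 9.19 and 6.53 in controls 1, 2 and 3 (log2 values). TGF-β1 1 and 2 lay below controls 1 and 2, whereas TGF-β1 3 lay between these controls and control 3 was the lowest of all, so the groups overlapped. The means were 7.95 ± 0.76 in TGF-β1 arrays and 8.02 ± 1.36 in controls (SD, n = 3 each), a difference of -0.07 ± 0.73 (SE, limma, adjusted p = 0.966). With array weights the difference was -1.41 ± 0.26 (adjusted p = 0.00838), a 2.65-fold lower level, and without control 3 and TGF-β1 3 it was -1.24 ± 0.28 (adjusted p = 0.0717). Controls 1 and 2 differed from each other by 0.83.

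Aox1, an aldehyde oxidase that oxidises aldehydes and nitrogen-containing ring compounds, had the clearest separation on the lower side. It was at 5.62, 6.00 and 6.14 in TGF-β1 1, 2 and 3, and at 6.54, 7.43 and 6.92 in controls 1, 2 and 3. All 3 TGF-β1 arrays lay below all 3 controls, which was true of 5.78% of all genes. The group means were 5.92 ± 0.27 in TGF-β1 arrays and 6.96 ± 0.45 in controls (SD, n = 3 each). The unweighted difference was -1.04 ± 0.36 (adjusted p = 0.776), that with array weights -1.42 ± 0.22 (adjusted p = 0.00362, 2.67-fold lower) and that without control 3 and TGF-β1 3 -1.18 ± 0.29 (adjusted p = 0.0913). Its sign was negative in all 24 fits that were run. As the groups do not overlap, fits on the same values could not have turned it. Aox3, the neighbouring aldehyde oxidase, was at 7.41, 7.55 and 7.58 in TGF-β1 1, 2 and 3, and at 8.16, 8.76 and 6.58 in controls 1, 2 and 3. It was lower than controls 1 and 2 in every TGF-β1 array, with a difference of -1.12 ± 0.18 with array weights (adjusted p = 0.00417) and of -0.98 ± 0.22 without control 3 and TGF-β1 3 (adjusted p = 0.0667); unweighted it was -0.32 ± 0.56.

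Nqo1, the quinone reductase often used as a readout of Nrf2, showed no difference beyond the spread of the arrays. It was at 5.40, 6.17 and 5.66 in TGF-β1 1, 2 and 3, and at 5.62, 5.73 and 6.00 in controls 1, 2 and 3. TGF-β1 1 was the lowest and TGF-β1 2 the highest array, so the control values lay within the range of the treated ones. The difference was -0.04 ± 0.34 unweighted, -0.03 ± 0.20 with array weights (adjusted p = 0.962) and 0.11 ± 0.25 without control 3 and TGF-β1 3. Every value lay below the median of all probe sets of its array (6.69 to 6.80), and with no measure of background a small change near the floor could go unseen.

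Neither subunit of the ligase that makes glutathione passed in any of the 3 fits. Gclc encodes the catalytic subunit of glutamate-cysteine ligase, the enzyme of the slow step of glutathione synthesis. It was at 9.03, 9.12 and 9.13 in TGF-β1 1, 2 and 3, and at 9.28, 9.78 and 7.47 in controls 1, 2 and 3. The TGF-β1 arrays agreed closely and lay below controls 1 and 2 but above control 3. The difference was 0.25 ± 0.60 unweighted, -0.57 ± 0.17 with array weights (adjusted p = 0.0769) and -0.45 ± 0.19 without control 3 and TGF-β1 3 (adjusted p = 0.305). Gclm, the modifier subunit of the same ligase, was at 7.63, 7.75 and 8.92 in TGF-β1 1, 2 and 3, and at 7.48, 7.74 and 4.97 in controls 1, 2 and 3. TGF-β1 1 and 2 lay close to controls 1 and 2, TGF-β1 3 was the highest array and control 3 the lowest. Its unweighted difference of 1.37 ± 0.78 (adjusted p = 0.776) became 0.09 ± 0.20 with array weights (adjusted p = 0.873) and 0.08 ± 0.16 without control 3 and TGF-β1 3.

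Gpx2 is a selenium-containing glutathione peroxidase found mainly in epithelia. It was at 10.26, 10.28 and 9.701 in TGF-β1 1, 2 and 3, and at 9.698, 9.61 and 9.48 in controls 1, 2 and 3. All 3 TGF-β1 arrays lay above all 3 controls, as for 5.8% of all genes, but TGF-β1 3 and control 1 were nearly equal. The means were 10.08 ± 0.33 in TGF-β1 arrays and 9.60 ± 0.11 in controls (SD, n = 3 each). The difference was 0.49 ± 0.32 unweighted (adjusted p = 0.776), 0.60 ± 0.14 with array weights (adjusted p = 0.0269, 1.52-fold higher) and 0.62 ± 0.14 without control 3 and TGF-β1 3 (adjusted p = 0.0742). Control 3 was close to the other controls for this gene, at 0.18 below the mean of controls 1 and 2. The difference was positive in all 24 fits, but fits on the same values could not turn it, as the groups do not overlap.

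Markers of secretory cells, too, were higher in the TGF-β1 arrays. Among acinar and secretory markers, 10 of 11 measured ones rose, with list means of 10.19 to 10.55 in the TGF-β1 arrays and 6.85 to 7.87 in the controls; Bpifa2, an abundant salivary protein, was at 12.99 to 13.79 in TGF-β1 arrays and 4.65 to 7.68 in controls. Of 12 epithelial markers 1 rose, with list means of 10.02 to 10.62 in TGF-β1 arrays and 10, 9.66 and 7.26 in controls 1, 2 and 3. The part of these cells in the level of Gpx2 was not tested, and in bulk samples fewer cells of a type and less RNA per cell cannot be told apart. Over all genes 1.12% rose and 1.36% fell. Of 7 measured markers of neurons and glia 2 rose, of 9 endothelial markers 1 fell, and of 11 mesenchymal markers 0 passed in both fits. The list means of these were 7.47 to 7.79 in TGF-β1 arrays and 6.67 to 6.93 in controls for neurons and glia, 5.67 to 6.33 in TGF-β1 arrays and 5.76 to 6.50 in controls for endothelium, and 8.74 to 9.30 in TGF-β1 arrays and 7.16 to 9.26 in controls for mesenchyme.

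Macrophages and red cell precursors, which handle heme, are other sources of Hmox1. Of 13 measured macrophage markers 0 passed in any of the 3 fits; their mean was 6.42, 6.59 and 7.41 in TGF-β1 1, 2 and 3, and 6.51, 6.85 and 7.16 in controls 1, 2 and 3. TGF-β1 3 was the highest array for this list, and it was also the TGF-β1 array with the highest Hmox1. Control 3 was the next highest for the list but had the lowest Hmox1 of all arrays (6.53). Over all genes, too, control 3 lay above the mean of controls 1 and 2, by a median of 0.45, against 0.60 for this list. Its place in the list is therefore not particular to macrophage markers. Of 8 measured red cell markers 2 were lower with array weights and 0 passed without control 3 and TGF-β1 3, and the list mean was 6.48 to 6.86 in the TGF-β1 arrays and 7 to 7.45 in the controls. Values on this scale have no 0 for a gene that is not expressed. The part of either cell type in the level of Hmox1 was not tested.

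Txnrd1 and Srxn1 act on the thioredoxin and peroxiredoxin side of the response. Txnrd1, the cytosolic thioredoxin reductase and a selenoprotein, was at 9.39, 9.50 and 9.02 in TGF-β1 1, 2 and 3, and at 9.68, 9.54 and 6.16 in controls 1, 2 and 3. The 5 arrays other than control 3 lay within 0.66 of each other, and control 3 was 3.45 below the mean of controls 1 and 2. The difference was 0.84 ± 0.91 unweighted, -0.15 ± 0.17 with array weights (adjusted p = 0.700) and -0.17 ± 0.15 without control 3 and TGF-β1 3. Srxn1, sulfiredoxin, which repairs over-oxidised peroxiredoxins, was at 7.02, 7.06 and 7.56 in TGF-β1 1, 2 and 3, and at 7.52, 7.69 and 8.67 in controls 1, 2 and 3. Only TGF-β1 3 overlapped the controls, lying just above control 1. The group means were 7.21 ± 0.30 in TGF-β1 arrays and 7.96 ± 0.62 in controls (SD, n = 3 each). The difference was -0.75 ± 0.41 unweighted (adjusted p = 0.776), -0.59 ± 0.15 with array weights (adjusted p = 0.0356, 1.5-fold lower) and -0.57 ± 0.15 without control 3 and TGF-β1 3 (adjusted p = 0.102), and it was negative in all 24 fits. Of the windows shown above, those of Srxn1 and Aox1 hold an AP-1 site, and their genes were lower with array weights. Osgin1 has such a site too and was not lower there. Hmox1, also lower with array weights, has no window, and the part of these sites in the levels was not tested.

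Osgin1, an oxidative stress induced growth inhibitor, was at 6.71, 6.49 and 6.31 in TGF-β1 1, 2 and 3, and at 6.40, 6.24 and 8.39 in controls 1, 2 and 3. Control 3 was the highest array and the other 5 lay within 0.475 of each other. The difference was -0.50 ± 0.60 unweighted, 0.32 ± 0.16 with array weights (adjusted p = 0.282) and 0.28 ± 0.16 without control 3 and TGF-β1 3 (adjusted p = 0.432).

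**Figure D2:**
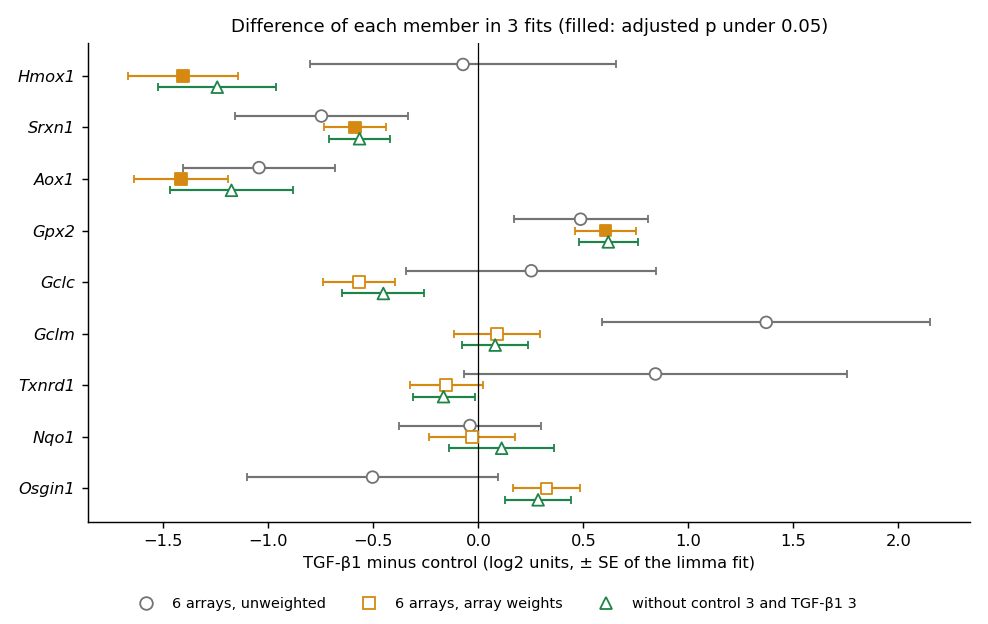
Difference between TGF-β1 and control arrays (horizontal axis, log2 units, ± SE of limma's fit) of the 9 measured members in 3 fits: all 6 arrays unweighted, all 6 with array weights, and the 4 arrays left when control 3 and TGF-β1 3 are taken out. Filled symbols passed an adjusted p of 0.05, which only Hmox1, Srxn1, Aox1 and Gpx2 did, with array weights. The unweighted point lies away from the other fits for Hmox1, Gclc, Gclm, Txnrd1 and Osgin1, the members for which control 3 was over 2 log2 units from the mean of controls 1 and 2.

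Among genes of the proteins that control Nrf2, Bach1 and Mafk were lower with array weights. None passed in the unweighted fit or in the one on 4 arrays. Over all 24 fits Bach1 passed in 4 and Mafk in 3, each of them with array weights. Of 13 genes of the Nrf2 switch, 0 passed unweighted and 0 without control 3 and TGF-β1 3, and 2 passed with array weights, both lower (15.4%, against 6.88% of all genes). The median difference with array weights was -0.165, against 0.005 over all genes. Unweighted, the median had the other sign, at 0.138 against -0.144 over all genes, and the differences ran between -0.767 and 1.302. Nfe2l2 itself was at 6.12, 6.00 and 6.07 in TGF-β1 1, 2 and 3, and at 6.16, 6.27 and 7.08 in controls 1, 2 and 3. It was lower in every TGF-β1 array, with a difference of -0.16 ± 0.14 with array weights (adjusted p = 0.574), of -0.15 ± 0.15 without control 3 and TGF-β1 3 and -0.44 ± 0.36 unweighted. Keap1 was at 8.70, 8.73 and 9.32 in TGF-β1 1, 2 and 3, and at 8.47, 8.62 and 5.77 in controls 1, 2 and 3. All TGF-β1 arrays lay above all controls, and the difference was 1.30 ± 0.76 unweighted (adjusted p = 0.776), 0.19 ± 0.17 with array weights (adjusted p = 0.610) and 0.18 ± 0.15 without control 3 and TGF-β1 3. Bach1, the heme-sensitive repressor that competes with Nrf2 for its sites and controls Hmox1, was at 10.72, 10.77 and 10.50 in TGF-β1 1, 2 and 3, and at 11.40, 11.54 and 9.74 in controls 1, 2 and 3. It lay below controls 1 and 2 in every TGF-β1 array, with a difference of -0.77 ± 0.15 with array weights (adjusted p = 0.00924) and of -0.72 ± 0.15 without control 3 and TGF-β1 3 (adjusted p = 0.0539); unweighted it was -0.23 ± 0.52. Mafk, one of the small Maf partners, was at 7.10, 7.06 and 7.20 in TGF-β1 1, 2 and 3 and at 7.81, 7.63 and 8.22 in controls 1, 2 and 3, with groups that did not overlap. It differed by -0.59 ± 0.14 with array weights (adjusted p = 0.0240) and by -0.64 ± 0.15 without control 3 and TGF-β1 3 (adjusted p = 0.0765), and by -0.77 ± 0.31 unweighted.

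Calls in the wider glutathione list were mostly on the lower side. Of 24 measured genes, 2 fell, Slc7a11 and Gsta2, and 0 rose; with array weights alone 3 were lower and 1 was higher (16.7% of the list, against 6.88% of all genes). Slc7a11, the cystine importer that supplies cysteine for glutathione and a known target of both Nrf2 and the amino acid response factor Atf4, was at 6.65, 6.83 and 7.97 in TGF-β1 1, 2 and 3, and at 8.66, 9.75 and 8.17 in controls 1, 2 and 3. All TGF-β1 arrays lay below all controls. It fell by 2.67 ± 0.27 with array weights (adjusted p = 3.47e-04) and the difference was -2.46 ± 0.32 without control 3 and TGF-β1 3 (adjusted p = 0.0222) and -1.71 ± 0.54 unweighted (adjusted p = 0.776). Chac1, an enzyme that breaks glutathione down, differed by -0.52 ± 0.14 with array weights (adjusted p = 0.0427), by -0.51 ± 0.14 without control 3 and TGF-β1 3 (adjusted p = 0.122) and by -0.23 ± 0.33 unweighted.

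The α-class glutathione transferases, which join glutathione to electrophiles, lay in opposite directions. Gsta2, whose sequence is close to that of Gsta1 so that a probe set may see both, was at 6.20, 5.25 and 7.22 in TGF-β1 1, 2 and 3, and at 7.70, 8.52 and 4.82 in controls 1, 2 and 3. It fell by 2.34 ± 0.32 with array weights (adjusted p = 0.00185) and the difference was -2.38 ± 0.36 without control 3 and TGF-β1 3 (adjusted p = 0.0274), but control 3 lay below every other array and the unweighted difference was -0.79 ± 0.98. Gsta3 was at 9.21, 8.87 and 9.37 in TGF-β1 1, 2 and 3, and at 8.19, 7.51 and 7.05 in controls 1, 2 and 3, above all controls in every TGF-β1 array. It differed by 1.41 ± 0.19 with array weights (adjusted p = 0.00181) and by 1.19 ± 0.24 without control 3 and TGF-β1 3 (adjusted p = 0.0559); unweighted it was 1.57 ± 0.39 (adjusted p = 0.776). Gsr, which recycles oxidised glutathione, differed by 0.32 ± 0.15 with array weights (adjusted p = 0.276), by 0.28 ± 0.15 without control 3 and TGF-β1 3 and by 0.99 ± 0.63 unweighted.

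**Figure D3:**
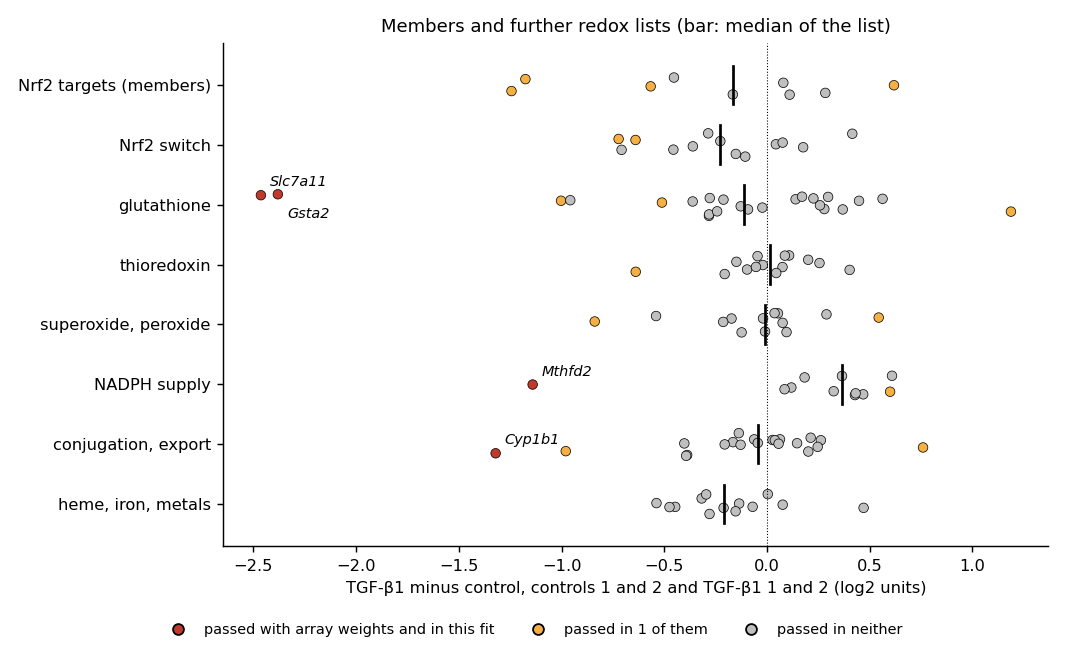
Difference between TGF-β1 and control glands without control 3 and TGF-β1 3 (horizontal axis, log2 units) for each measured gene of the members and of the 7 further lists; points are genes, spread vertically so that they can be told apart, and bars are list medians. Red genes passed both with array weights and in the fit plotted (Slc7a11, Gsta2, Mthfd2 and Cyp1b1, all lower), orange genes passed in 1 of these fits, and the median of the NADPH list is 0.365 while the others lie between -0.227 and 0.013.

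The thioredoxin and superoxide lists held few calls. Of 14 thioredoxin and peroxiredoxin genes 0 passed without control 3 and TGF-β1 3 and 1 was lower with array weights (7.14%, against 6.88% of all genes). This was Sesn2, a stress-induced sestrin, with a difference of -0.78 ± 0.20 with array weights (adjusted p = 0.0379), of -0.64 ± 0.22 without control 3 and TGF-β1 3 (adjusted p = 0.199) and -1.05 ± 0.39 unweighted. Prdx1, an abundant peroxiredoxin, differed by 0.01 ± 0.15 with array weights, by 0.05 ± 0.15 without control 3 and TGF-β1 3 and by 0.11 ± 0.34 unweighted. Of 13 genes that make or remove superoxide and peroxide, 0 passed without control 3 and TGF-β1 3 and 2 with array weights (15.4%, against 6.88% of all genes). With array weights Noxo1, an organiser of the Nox1 oxidase, was higher by 0.58 ± 0.14 (adjusted p = 0.0259), and Ncf4, a subunit of the phagocyte oxidase, differed by -0.88 ± 0.19 (adjusted p = 0.0170). In the fit on 4 arrays, without control 3 and TGF-β1 3, the difference was 0.54 ± 0.15 for Noxo1 (adjusted p = 0.110) and -0.84 ± 0.17 for Ncf4 (adjusted p = 0.0550), and unweighted it was 0.33 ± 0.33 for Noxo1 and -0.72 ± 0.45 for Ncf4. Nox4 was at 5.90, 5.88 and 6.37 in TGF-β1 1, 2 and 3, and at 5.85, 5.96 and 6.71 in controls 1, 2 and 3, a difference of -0.01 ± 0.14 with array weights (adjusted p = 0.982), of -0.0093 ± 0.14 without control 3 and TGF-β1 3 and -0.12 ± 0.37 unweighted. Sod2, the mitochondrial superoxide dismutase, differed by -0.11 ± 0.21 with array weights, by -0.17 ± 0.15 without control 3 and TGF-β1 3 and by 0.57 ± 0.52 unweighted. Cat, catalase, differed by 0.13 ± 0.15 with array weights, by 0.08 ± 0.14 without control 3 and TGF-β1 3 and by 0.87 ± 0.63 unweighted.

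The differences of NADPH supply genes were mostly above 0, in 10 of 11 with array weights, against 9927 of all 19505 genes. Of 11 measured genes, 1 fell and 0 rose, while with array weights alone 1 was higher and 1 lower (18.2%, against 6.88% of all genes); the list median was 0.416 with array weights, against 0.005 over all genes. Taldo1, transaldolase of the pentose phosphate pathway, was at 9.81, 9.97 and 9.88 in TGF-β1 1, 2 and 3, and at 9.38, 9.21 and 7.62 in controls 1, 2 and 3, all TGF-β1 arrays being above all controls. It differed by 0.62 ± 0.15 with array weights (adjusted p = 0.0257) and by 0.60 ± 0.15 without control 3 and TGF-β1 3 (adjusted p = 0.0985); unweighted it was 1.15 ± 0.51. Pgd, the second dehydrogenase of that pathway, differed by 0.42 ± 0.14 with array weights (adjusted p = 0.0971), by 0.43 ± 0.14 without control 3 and TGF-β1 3 and by 0.60 ± 0.33 unweighted. Me1, the cytosolic malic enzyme, differed by 0.39 ± 0.20 with array weights (adjusted p = 0.306), by 0.32 ± 0.17 without control 3 and TGF-β1 3 and by 1.75 ± 1.11 unweighted. Mthfd2, a mitochondrial folate enzyme that is also a target of Atf4, was at 8.70, 8.92 and 9.77 in TGF-β1 1, 2 and 3, and at 9.99, 9.91 and 7.11 in controls 1, 2 and 3. It fell by 1.08 ± 0.19 with array weights (adjusted p = 0.00627) and the difference was -1.14 ± 0.15 without control 3 and TGF-β1 3 (adjusted p = 0.0226), while its unweighted difference was 0.13 ± 0.80.

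Of 21 genes that oxidise, conjugate or export foreign compounds, 1 fell and 0 rose; with array weights alone 2 were lower and 1 was higher (14.3%, against 6.88% of all genes). Cyp1b1, a cytochrome P450 that the aryl hydrocarbon receptor induces, was at 6.52, 6.84 and 6.66 in TGF-β1 1, 2 and 3, and at 7.99, 8.01 and 5.86 in controls 1, 2 and 3. It fell by 1.36 ± 0.16 with array weights (adjusted p = 7.85e-04) and the difference was -1.32 ± 0.16 without control 3 and TGF-β1 3 (adjusted p = 0.0192) and -0.61 ± 0.61 unweighted. Ephx2, the soluble epoxide hydrolase, was higher by 0.93 ± 0.19 with array weights (adjusted p = 0.0129), and the difference was 0.76 ± 0.19 without control 3 and TGF-β1 3 (adjusted p = 0.0914) and 0.53 ± 0.56 unweighted. Among 13 genes of heme, iron and metal handling 0 passed in any of the 3 fits. Fth1, the ferritin heavy chain, differed by -0.59 ± 0.20 with array weights (adjusted p = 0.114), by -0.45 ± 0.23 without control 3 and TGF-β1 3 and by -0.60 ± 0.49 unweighted. Blvrb, a biliverdin reductase, differed by -0.28 ± 0.25 with array weights, by -0.32 ± 0.20 without control 3 and TGF-β1 3 and by 0.21 ± 0.57 unweighted. Mt1, a metallothionein, differed by -0.11 ± 0.20 with array weights, by -0.28 ± 0.18 without control 3 and TGF-β1 3 and by 0.58 ± 0.54 unweighted.

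Over the 7 further lists together, 109 genes were measured. With array weights 14 passed, 4 higher and 10 lower, which is 12.8% against 6.88% of all genes. Without control 3 and TGF-β1 3, 5 passed, all lower, which is 4.59% against 2.59% of all genes. The 4 genes that passed in both fits, 3.67% against 2.48% of all genes, were all lower, and 0 of the 9 members passed in both.

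**Figure D4:**
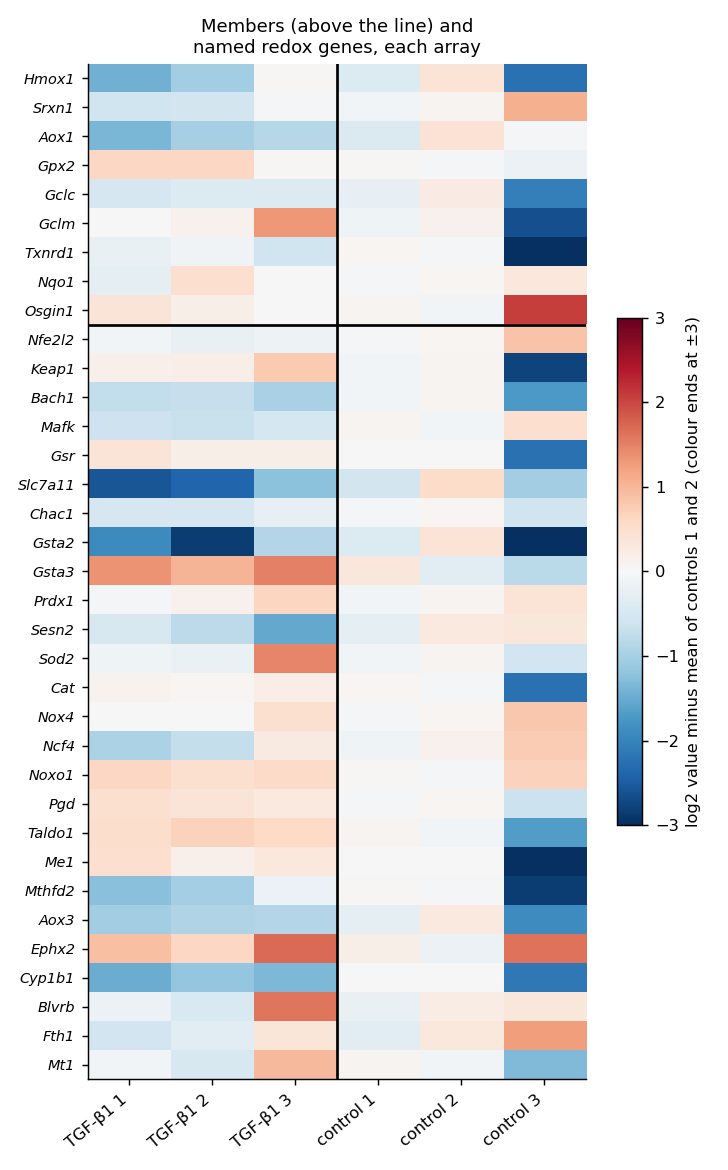
Log2 value of each array minus the mean of controls 1 and 2 (colour, red above and blue below, ending at 3 log2 units either way) for the 9 measured members (above the black line) and the named genes of the further lists (below it); columns are arrays, TGF-β1 left of the vertical line. The column of control 3 differs from controls 1 and 2 in both directions, and Slc7a11, Gsta2, Mthfd2 and Cyp1b1 are blue in TGF-β1 1, 2 and 3.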

How the data were processed

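RNA from 6 samples was hybridised to 1 Affymetrix mouse array each (6 µg of RNA per sample, per the labels' protocols). The authors deposited log2 values per probe set, made by RMA per the submitters' processing notes; the sources used here give no version, background level or scan batch. Platform annotation gave 19572 of 22206 probe sets 1 gene symbol and 0 several; 2634 were unnamed. Where a gene had several probe sets the brightest was used (67 left out), leaving 19505 genes.

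The comparison used lmFit and eBayes of limma 3.58.1 (R 4.3.3), and p-values were adjusted by Benjamini-Hochberg over all 19505 genes, with a threshold of 0.05. The main test was the unweighted fit. A weighted fit and one on 4 arrays (control 3 and TGF-β1 3 left out) were added to it as checks. All adjusted p-values are from limma. Control 3 and TGF-β1 3 were left out because they stood apart in these same values. The SE and adjusted p on 4 arrays may therefore be too small. The script was run on simulated data, where the mean fitted difference was required to lie near the one put in. False calls were not part of that requirement. The members and gene lists were chosen with earlier results of these data known. Named pathway genes are those fixed by name (Nfe2l2, Keap1, Bach1, Slc7a11, Gsr, Prdx1, Sod2, Cat, Nox4, Pgd, Me1, Blvrb and Mt1) and, per list, up to 3 in each direction that passed with array weights or, where none did, the gene of smallest p. Levels of different genes were not compared, since probe sets differ in brightness. Promoter sequences are from RefSeq (GRCm38.p6). G6pdx and 9 genes of the other lists are not analysed here.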

Additional observations from a re-analysis of the deposited data

How the results depend on the processing

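The calls depended on array weights and on which arrays entered the fit. The unweighted fit of 6 arrays called 0 members, 0 pathway genes and 0 genes in all, also with quantile normalization, median centring, the dim genes left out, averaged probe sets, a trended and robust prior, the replicate block, and any 1 array left out; 389 genes had an unadjusted p under 0.05. Array weights called 4 members, 14 pathway genes and 1342 of all genes, where the weights are estimated from the same 6 arrays and then treated as known, and their estimation stopped before it converged. Without control 3 and TGF-β1 3 the counts were 0, 5 and 505. With control 3 left out and array weights they were 0, 7 and 544, with quantile normalization and array weights 1 (Aox1), 7 and 450, and with median centring and array weights 0, 3 and 265. The replicate block with array weights gave 5, 25 and 2502, and the block without weights called 0. In the weighted block fit same-numbered arrays got equal weights, 2.36, 5.47 and 0.078 for numbers 1, 2 and 3. That fit therefore rests mainly on the arrays numbered 1 and 2, and its weights did not converge either. Deviations of same-numbered arrays from their group means had correlations of -0.066, -0.008 and -0.05. Control 3 stood far from controls 1 and 2 and so weighs on the deviation of every control. These values therefore cannot decide whether the numbers pair the arrays. With any 1 array left out of the unweighted fit, or any 1 other than control 3 out of the weighted fit, the counts were 0 for members, 0 to 4 for pathway genes and 0 to 375 for all genes. With array weights, all genes called numbered 0 without control 1, 0 without control 2, 8 without TGF-β1 1, 12 without TGF-β1 2 and 375 without TGF-β1 3. In these weighted fits control 3 weighed as much as the other control left, or more than control 2. Their counts therefore cannot decide whether the calls hinge on the array left out. The weighted fits with another normalization, or without 1 array other than control 3, were chosen after seeing the data. Leaving out control 3 and TGF-β1 3 together also rests on how these arrays lay in the data.

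Over 35 differences and 23 alternatives, 644 of 802 values kept their sign and their side of the threshold, 57 kept their sign and newly passed, and 101 turned sign, in 16 genes; 6 of those that turned also passed (Mthfd2 in 5 fits and Gclc with the replicate block and array weights), so 63 passed in all. The unweighted fit called 0 genes, so none of the turned differences could have passed there. With array weights the sign turned for Gclc (-0.57), Txnrd1 (-0.15), Osgin1 (0.32), Sod2 (-0.11), Mthfd2 (-1.08), Blvrb (-0.28) and Mt1 (-0.11). Without control 3 and TGF-β1 3 the sign turned for Nqo1 (0.11), Gclc (-0.45), Txnrd1 (-0.17), Osgin1 (0.28), Sod2 (-0.17), Mthfd2 (-1.14), Blvrb (-0.32) and Mt1 (-0.28). With control 3 left out and array weights the sign turned for Gclc (-0.46), Txnrd1 (-0.20), Osgin1 (0.30), Sod2 (-0.077), Nox4 (0.019), Mthfd2 (-1.12), Blvrb (-0.18) and Mt1 (-0.15). After quantile normalization the sign turned for Nqo1 (0.13), Hmox1 (6.056e-06), Prdx1 (-0.22), Noxo1 (-0.0017) and Blvrb (-0.14). With the replicate block and array weights the sign turned for Nqo1 (0.24), Gclc (-0.51), Txnrd1 (-0.087), Osgin1 (0.25), Sod2 (-0.20), Mthfd2 (-1.04), Blvrb (-0.45) and Mt1 (-0.30). After quantile normalization with array weights the sign turned for Gclc (-0.41), Txnrd1 (-0.15), Osgin1 (0.25), Sod2 (-0.046), Nox4 (0.0077), Mthfd2 (-1.03), Blvrb (-0.15) and Mt1 (-0.14). After median centring with array weights the sign turned for Nqo1 (0.023), Gclc (-0.30), Txnrd1 (-0.20), Osgin1 (0.22), Sod2 (-0.019), Nox4 (0.036), Mthfd2 (-1.10), Blvrb (-0.059) and Mt1 (-0.18). With 1 array left out in these same ways the differences that turned spanned Nqo1 -0.25 to 0.29, Hmox1 -0.82 to 0.51, Gclc -0.43 to 0.72, Txnrd1 -0.42 to 1.56, Osgin1 -0.89 to 0.19, Bach1 -0.80 to 0.16, Prdx1 -0.19 to 0.46, Sod2 -0.076 to 0.85, Nox4 -0.41 to 0.28, Mthfd2 -1.14 to 0.62, Aox3 -0.94 to 0.15, Ephx2 -0.055 to 1.10, Blvrb -0.46 to 0.93, Fth1 -1.23 to 0.31 and Mt1 -0.33 to 0.89. Aox1, Srxn1, Slc7a11, Gsta2 and Cyp1b1 were negative and Gpx2 positive in all 24 fits. For Aox1, Slc7a11 and Gpx2 the groups do not overlap, so fits on the same values could not turn the sign. The sign also held in all 24 fits for genes that passed in 0 of them, such as Gclm, Nfe2l2 and Cat. With 3 arrays a group, their number limits the precision; the cause of the other changes was not tested.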
